A study of Mus musculus with 7 samples.

Results

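The 4 genes that encode the subunits of calcium/calmodulin-dependent protein kinase II (CaMKII), Camk2a, Camk2b, Camk2d and Camk2g, were followed through single nuclei of the mouse striatum. They were taken by symbol as 4 of the 27998 genes in the deposited tables. Their genotype differences were known when the family was chosen, so levels, shares and fitted changes of these genes are given here as descriptions, with no p-value. The nuclei came from 4 HttQ175/+ mice and 3 wild-type (WT) mice. HttQ175 is a knock-in of an expanded CAG repeat into mouse huntingtin that serves as a model of Huntington's disease, and it was carried here in 1 copy beside a normal allele. All mice were C57BL6/J males aged 14 months, apart from HttQ175/+ replicate 1, whose age was 15 months. Each mouse gave 1 library of transcript 3′ ends, and the mouse is the replicate. Among the 12 cell types of the deposited annotation, the direct pathway spiny projection neurons (dSPNs) held 1296 HttQ175/+ and 513 WT nuclei, and the indirect pathway spiny projection neurons (iSPNs) held 608 HttQ175/+ and 333 WT nuclei.

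CaMKII is a holoenzyme built from many subunits, each with a kinase domain, a calmodulin-binding regulatory segment and a hub that joins it to the others. Calcium that enters a neuron loads calmodulin, loaded calmodulin opens the kinase, and neighbouring subunits then phosphorylate each other, which keeps the kinase active after calcium falls. In brain the alpha (Camk2a) and beta (Camk2b) subunits predominate, and the kinase is a main component of the postsynaptic density, where it acts in synaptic plasticity. The beta subunit also binds actin filaments, the delta subunit (Camk2d) is best known from heart muscle, and the gamma subunit (Camk2g) has been described in rodent neurons as a carrier of calmodulin to the nucleus.

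The start regions of Camk2b and Camk2d are shown because these genes were lower and higher in HttQ175/+ dSPNs. Both are RefSeq sequences of GRCm38.p6, given 5′ to 3′ on the strand of the gene, and each spans 300 bases around the gene start that RefSeq gives. Camk2b is at chr11:6065699-6065998 on the minus strand and Camk2d at chr3:126596701-126597000 on the plus strand. Capitals mark the GC box GGGCGG or its reverse complement CCGCCC.
Camk2b: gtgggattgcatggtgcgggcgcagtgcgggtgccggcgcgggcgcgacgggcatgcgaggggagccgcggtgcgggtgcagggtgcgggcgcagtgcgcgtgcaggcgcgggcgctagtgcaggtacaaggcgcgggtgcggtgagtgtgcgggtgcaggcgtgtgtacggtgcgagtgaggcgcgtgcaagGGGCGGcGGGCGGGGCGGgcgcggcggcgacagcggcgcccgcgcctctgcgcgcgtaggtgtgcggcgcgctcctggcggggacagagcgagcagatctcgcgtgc
Camk2d: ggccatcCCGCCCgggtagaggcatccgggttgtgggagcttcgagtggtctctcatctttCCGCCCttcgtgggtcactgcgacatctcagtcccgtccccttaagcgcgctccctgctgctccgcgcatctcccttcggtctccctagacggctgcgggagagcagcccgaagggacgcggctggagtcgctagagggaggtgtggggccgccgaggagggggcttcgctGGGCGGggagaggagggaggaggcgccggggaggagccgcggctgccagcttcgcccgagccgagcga
Each start region held 3 GC boxes, and 2 of those of Camk2b overlap by 1 base. A GC box on either strand occurred in 35.7% of 32851 mouse start regions of the same length. Neither region held the CCAAT box (searched as CCAAT), which 37.4% of start regions hold on either strand. Neither held the TATA box (TATAAA), found in 13.6%, nor the cyclic AMP response element (TGACGTCA), found in 1.79%. G and C made up 77.3% of the Camk2b region and 70.3% of the Camk2d region, against a median of 52.7% over all start regions.

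In mm10 coordinates of GENCODE, Camk2a lies on the plus strand of chromosome 18, 60925618 to 60988152, and Camk2b on the minus strand of chromosome 11, 5969644 to 6066362. Camk2d lies on the plus strand of chromosome 3, 126596302 to 126846326, and Camk2g on the minus strand of chromosome 14, 20734875 to 20794088. Both start regions lie inside these GENCODE bounds, whose outermost start is upstream of the RefSeq start. The longest stretch of bases shared by protein-coding transcripts of any pair of the 4 genes was 32 bases, and over the last 500 bases of the transcripts it was 25 bases.

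The 4524 nuclei held 1128 to 5632 unique molecular identifiers (UMIs) each, and 3 cell barcodes occurred in more than 1 library. Depth differed by genotype. Median UMIs per nucleus were 2007.5 in HttQ175/+ and 2753 in WT dSPNs, and 1787 in HttQ175/+ and 2554 in WT iSPNs. Summed markers of the dSPN, iSPN, eccentric SPN, interneuron, astrocyte, oligodendrocyte, oligodendrocyte progenitor, microglia and endothelial lists were each highest in the type of that name. Levels below are UMIs per 1000000 UMIs of the nucleus (CPM), averaged over the nuclei of a mouse. CPM from 3′ ends are not per transcript length, so the levels of different genes compare counts of captured molecules only.

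A lower limit on counts in the deposited tables bears on both brain-enriched subunits. Camk2a and Camk2b had no nucleus with exactly 1 UMI in any mouse, although 806 and 856 nuclei had exactly 2 UMIs and 453 and 490 had 3. Camk2d and Camk2g had 422 and 537 nuclei with 1 UMI. Such a floor of 2 or more UMIs was seen for 440 to 553 genes per library, out of 10070 to 12189 genes found in at least 10 nuclei, and for 289 genes in all 7 mice. The sources used here do not name the step that left it. If counts of 1 were listed as 0, shallower nuclei would lose more, and in dSPNs and iSPNs HttQ175/+ nuclei were the shallower ones. HttQ175/+ nuclei were the deeper ones in astrocytes (median 1923.5 UMIs against 1417.5 in WT) and oligodendrocytes (2167 against 1972). The same held for oligodendrocyte progenitors, endothelial nuclei and cholinergic interneurons. For Camk2a and Camk2b in dSPNs and iSPNs a floor-aware level is therefore printed beside the deposited one. Levels in other types are as deposited. It is a negative binomial estimate in which a 0 stands for any count under the floor, it assumes that those counts were set to 0, and it was added after the data had been seen.

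Camk2b was lower in HttQ175/+ than in WT in dSPNs and iSPNs, the spiny projection neuron (SPN) types with enough nuclei to be fitted. Camk2d was higher in HttQ175/+ dSPNs. Camk2g was higher in HttQ175/+ dSPNs and iSPNs, from a low level, and Camk2a overlapped between the genotypes. As deposited, the summed family was lower in HttQ175/+, at 1078 ± 144 CPM against 1538 ± 23.9 CPM in WT dSPNs and 1099 ± 128 CPM against 1541 ± 73.5 CPM in WT iSPNs (SD, n = 4 and 3 mice). Neither deposited sum overlapped between genotypes. Most of each sum is Camk2a and Camk2b, the genes with the floor, and no floor-aware sum is given. The part of the floor in the lower sums was not tested. In a limma fit over all genes, 2 of the 4 members passed an adjusted p of 0.05 in dSPNs, Camk2b and Camk2d, where 3.94% of 8790 tested genes passed, 121 higher (1.38%) and 225 lower (2.56%) in HttQ175/+. In iSPNs Camk2b passed, 1 of the 3 members tested, where 2.36% of 5894 tested genes passed, 30 higher (0.509%) and 109 lower (1.85%). Nothing is read from these counts, because the family was chosen on this contrast. Without scaling between mice the median change of all genes was 0.14 log2 in dSPNs and 0.10 in iSPNs, against 0.01 and -0.01 with it. The split was then 223 higher and 161 lower in dSPNs, and 43 higher and 74 lower in iSPNs. The members that passed were the same without scaling, and nothing is read from that either.

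**Figure D1:**
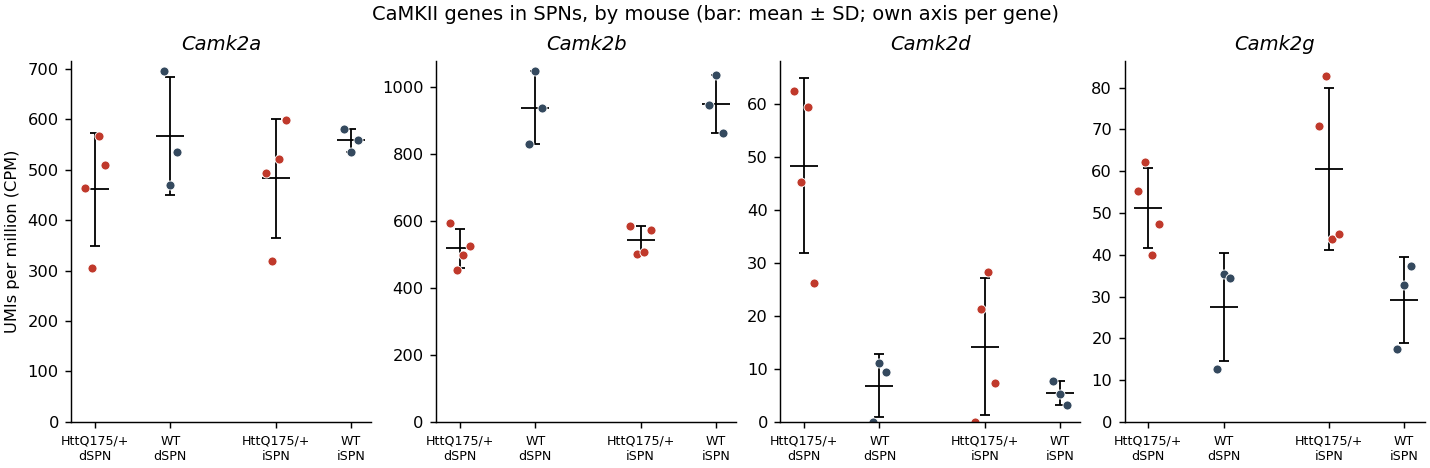
Level of each CaMKII gene in CPM (vertical axes, a separate scale per gene) in every mouse, HttQ175/+ in red left of WT in blue, with the mean and SD over mice, in dSPNs and iSPNs. Camk2b lies between 455 and 593 CPM in the 4 HttQ175/+ mice and between 828 and 1047 CPM in the 3 WT mice in dSPNs, and Camk2a overlaps.

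Camk2b, the actin-binding beta subunit, had 593, 455, 499 and 524 CPM in dSPNs of HttQ175/+ replicates 1 to 4, against 828, 1047 and 936 CPM in those of WT replicates 1 to 3. Every HttQ175/+ mouse lay below every WT mouse, a separation in this direction that 8.66% of tested genes showed in scaled levels. The means were 518 ± 57.7 CPM in HttQ175/+ and 937 ± 109 CPM in WT (SD), and the fitted change was -0.99 ± 0.14 log2 (SE). In iSPNs Camk2b had 585, 501, 507 and 573 CPM in HttQ175/+ mice, against 944, 1036 and 864 CPM in WT mice. These groups were apart too, as for 8.25% of the genes tested there with HttQ175/+ lower, and the change was -0.92 ± 0.16 log2. Eccentric SPNs averaged 324 ± 136 CPM of Camk2b in HttQ175/+ and 643 ± 252 CPM in WT. SPNs of unknown subtype averaged 409 ± 195 CPM in HttQ175/+ and 1134 ± 494 CPM in WT. Genotypes overlapped in each of these types, which had 41 and 11 WT nuclei and were not fitted. The floor-aware levels in dSPNs were 704, 654, 630 and 668 CPM in HttQ175/+ mice and 937, 1132 and 1027 CPM in WT mice. They stayed apart with a smaller distance, and refitted with them the change was -0.76 ± 0.12 log2 in dSPNs and -0.63 ± 0.13 log2 in iSPNs. In nuclei of 1500 to 2500 UMIs alone, with 29 to 293 dSPN and 21 to 132 iSPN nuclei per mouse, the change of Camk2b was -0.86 log2 in dSPNs and -0.81 log2 in iSPNs. In iSPNs it did not pass the threshold there. Calls of Camk2b elsewhere are no support, since the family was chosen on this contrast.

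Camk2a, the alpha subunit, had 463, 305, 566 and 508 CPM in HttQ175/+ dSPNs, against 696, 469 and 535 CPM in WT dSPNs. HttQ175/+ replicate 2, the library with the shallowest nuclei, was the lowest of all mice, and 2 of the other HttQ175/+ mice lay inside the WT range. In iSPNs Camk2a had 494, 318, 520 and 597 CPM in HttQ175/+ mice, against 580, 535 and 559 CPM in WT mice, which overlapped as well. The fitted change was -0.45 ± 0.20 log2 in dSPNs and -0.36 ± 0.20 log2 in iSPNs, and neither passed the threshold. With floor-aware levels, which were 611, 519, 695 and 693 CPM in HttQ175/+ and 794, 582 and 682 CPM in WT dSPNs, the changes were -0.25 ± 0.15 log2 and -0.17 ± 0.15 log2. The dSPN change was -0.26 log2 without HttQ175/+ replicate 2 and -0.28 without WT replicate 1, and the iSPN change -0.17 log2 without HttQ175/+ replicate 2. That neither estimate passed does not show that the alpha gene was equal between genotypes.

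Camk2d, the delta subunit, had 62.5, 45.2, 59.4 and 26.3 CPM in HttQ175/+ dSPNs, against 0, 11.2 and 9.35 CPM in WT dSPNs. These levels rest on 52, 44, 29 and 15 UMIs in HttQ175/+ mice and on 0, 3 and 6 UMIs in WT mice. The 0 of WT replicate 1 allows up to 6.52 CPM at 3 counts. All 4 HttQ175/+ mice lay above all 3 WT mice, which 7.57% of tested genes did, and the change was 2.39 ± 0.45 log2. Pooled over mice, Camk2d had 140 UMIs in HttQ175/+ and 9 UMIs in WT dSPNs, a ratio per UMI sequenced of 7.84 with a 95% interval of 4.01 to 17.5. That interval covers counting error only. Without WT replicate 1 the change was 1.75 log2, and with a pseudocount of 0.5 in place of 2 UMIs it was 3.17 log2, so its size depends on the scale and on that mouse.

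In iSPNs Camk2d was close to the counting limit. HttQ175/+ replicates 1 to 4 had 0, 10, 8 and 3 UMIs and WT replicates 1 to 3 had 3, 1 and 1, or 14.2 ± 12.9 CPM in HttQ175/+ and 5.43 ± 2.26 CPM in WT (SD). The groups overlapped, and the gene was under the low-value filter of at least 15 UMIs in all and 10 at the median sum in 3 mice. Within a mouse, Camk2d was higher in dSPNs than in iSPNs by 3.09, 0.86, 0.89 and 1.14 log2 in the HttQ175/+ mice, and the differences were -0.95, 0.51 and 0.62 log2 in the WT mice. The value of HttQ175/+ replicate 1, with 0 UMIs in iSPNs, and that of WT replicate 1, with 0 in dSPNs, are set by the pseudocount of 8.31 CPM. The mean over all 7 mice was 0.88 log2, and 0.51 without HttQ175/+ replicate 1. The difference of these differences was not tested. The other members differed little between the neuron types of a mouse, with means over all 7 mice of -0.04 log2 for Camk2a, -0.05 for Camk2b and -0.15 for Camk2g.

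Camk2g, the gamma subunit, had 55.2, 62.2, 39.9 and 47.4 CPM in HttQ175/+ dSPNs, against 12.7, 35.4 and 34.4 CPM in WT dSPNs. HttQ175/+ replicate 3 exceeded WT replicate 2 by little, and the groups did not overlap. In iSPNs it had 70.8, 82.8, 43.8 and 44.9 CPM in HttQ175/+ mice, against 17.6, 32.9 and 37.2 CPM in WT mice, again apart, as for 5.51% of genes tested there with HttQ175/+ higher. The fitted changes of 0.78 ± 0.30 log2 in dSPNs and 0.78 ± 0.32 log2 in iSPNs did not pass the threshold. Without WT replicate 1, the lowest mouse, the dSPN change was 0.38 log2.

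**Figure D2:**
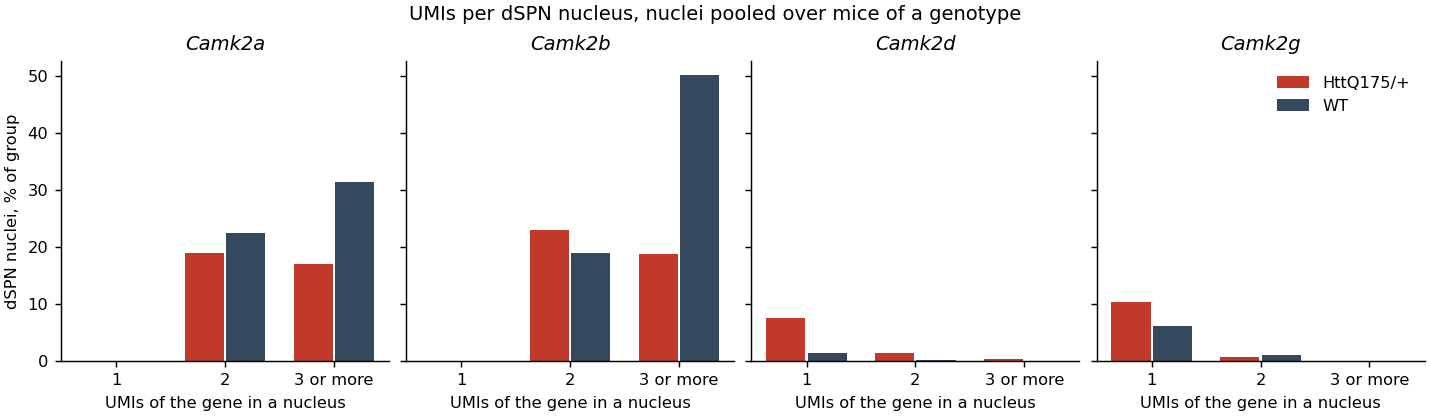
Percent of dSPN nuclei (vertical axis) with 1, 2, or 3 or more UMIs of each CaMKII gene (horizontal axis), nuclei pooled over the mice of a genotype, HttQ175/+ in red left of WT in blue. The bars at 1 UMI are empty for Camk2a and Camk2b, and 3 or more UMIs of Camk2b were listed in 18.8% of HttQ175/+ and 50.1% of WT nuclei.

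The distribution over nuclei differed between the subunits. At least 3 UMIs of Camk2b, a count above the floor, were listed in 18.8% of 1296 HttQ175/+ dSPN nuclei and in 50.1% of 513 WT nuclei. The same count of Camk2a was listed in 16.9% of HttQ175/+ and 31.4% of WT dSPN nuclei. Both pairs of shares pool the nuclei of a genotype. By mouse, Camk2a had 20.7, 8.1, 29.9 and 20.2% in HttQ175/+ and 36.8, 24.4 and 31.2% in WT, which overlapped. Camk2b had 12.2 to 25.1% by mouse in HttQ175/+ and 44.8 to 56.3% in WT, without overlap. These shares are at each nucleus's own depth, and WT nuclei were deeper. After every nucleus was thinned to 1000 UMIs, a UMI of Camk2b remained in 33.0 ± 4.26% of HttQ175/+ and 53.2 ± 5.73% of WT dSPN nuclei (SD over mice). Thinning acted on the floored counts, so the floor still bears on both values. In endothelial nuclei, which are not neurons, Camk2b was listed before thinning in 11.1% of HttQ175/+ and 18.5% of WT nuclei at median depths of 1768 and 1606 UMIs, against 43.4% of HttQ175/+ and 69.6% of WT dSPN nuclei at 2007.5 and 2753 UMIs. Oligodendrocytes listed it in 30.0% of HttQ175/+ and 30.6% of WT nuclei, astrocytes in 21.2% and 11.4%, and oligodendrocyte progenitors in 14.3% and 22.3%. Microglia listed it in 30.7% of HttQ175/+ nuclei and in 70.5% in WT, from 13 WT nuclei. These percents are means over mice, and HttQ175/+ replicates 3 and 4 had 0 in 10 and 6 endothelial nuclei.

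Camk2d, which has no floor, was found after thinning in 4.43 ± 1.43% of HttQ175/+ and 0.673 ± 0.593% of WT dSPN nuclei, and before it in 9.47% and 1.56%. No type here is known to lack the gene. HttQ175/+ iSPN nuclei of the same 4 libraries, its lowest type by CPM, held it in 3.38% before thinning and 1.37 ± 1.24% after it. Among the 117 HttQ175/+ dSPN nuclei with a Camk2d UMI, 97 had exactly 1 and 3 had at least 3. These 117 nuclei had a median of 2351 UMIs and a summed dSPN marker level of 1440 CPM, against 1973 UMIs and 1143 CPM in the 1179 nuclei without it. A split by a UMI of a rare gene favours deeper nuclei by itself. The nuclei are pooled over HttQ175/+ replicates 1 to 4, which gave 40, 39, 24 and 14 of the 117 and differed in depth. Other lists were higher there too, with the eccentric SPN list at 170 CPM against 121 CPM, the neural progenitor and neuroblast list at 160 against 117 CPM, the astrocyte list at 137 against 91.5 CPM and the microglia list at 59.3 against 31.6 CPM. The Pvalb or Pnoc list was at 14.9 CPM against 3.14 CPM, from 5 and 9 UMIs, and the cortical excitatory list was lower, at 10.6 CPM against 28.4 CPM, as was the iSPN list, at 82.4 CPM against 104 CPM. Their part in the Camk2d values was not tested. Camk2g was found after thinning in 4.98 ± 0.914% of HttQ175/+ and 2.66 ± 1.21% of WT dSPN nuclei.

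The makeup of the family differed, with a smaller share of the beta subunit in HttQ175/+ dSPNs and iSPNs. Camk2b made up 48.3 ± 4.17% of the summed family CPM in HttQ175/+ and 60.9 ± 6.59% in WT dSPNs, and 49.5 ± 3.81% in HttQ175/+ and 61.5 ± 2.73% in WT iSPNs. In dSPNs the 4 HttQ175/+ mice had 50.5, 52.4, 42.9 and 47.4% and the 3 WT mice 53.9, 67.0 and 61.8%, with no overlap. Camk2d made up 4.50 ± 1.42% in HttQ175/+ and 0.444 ± 0.387% in WT dSPNs, and Camk2g 4.89 ± 1.61% in HttQ175/+ and 1.79 ± 0.832% in WT dSPNs, again with no overlap. Camk2a took 42.3 ± 6.10% in HttQ175/+ and 36.9 ± 7.74% in WT dSPNs, and these ranges overlapped. The Camk2a share difference of 5.44 points was 9.64 without WT replicate 1, 2.02 without WT replicate 2 and 3.34 without HttQ175/+ replicate 3. Shares within a mouse do not depend on the scaling between mice.

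With floor-aware levels the Camk2b share was 47.8 ± 2.98% in HttQ175/+ and 58.9 ± 5.28% in WT dSPNs, and 49.3 ± 3.51% in HttQ175/+ and 58.7 ± 2.37% in WT iSPNs. The groups stayed apart in both types. The Camk2d share in dSPNs was then 3.47 ± 1.15% in HttQ175/+ and 0.389 ± 0.341% in WT, and the Camk2g share 3.70 ± 0.883% in HttQ175/+ and 1.57 ± 0.727% in WT.

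**Figure D3:**
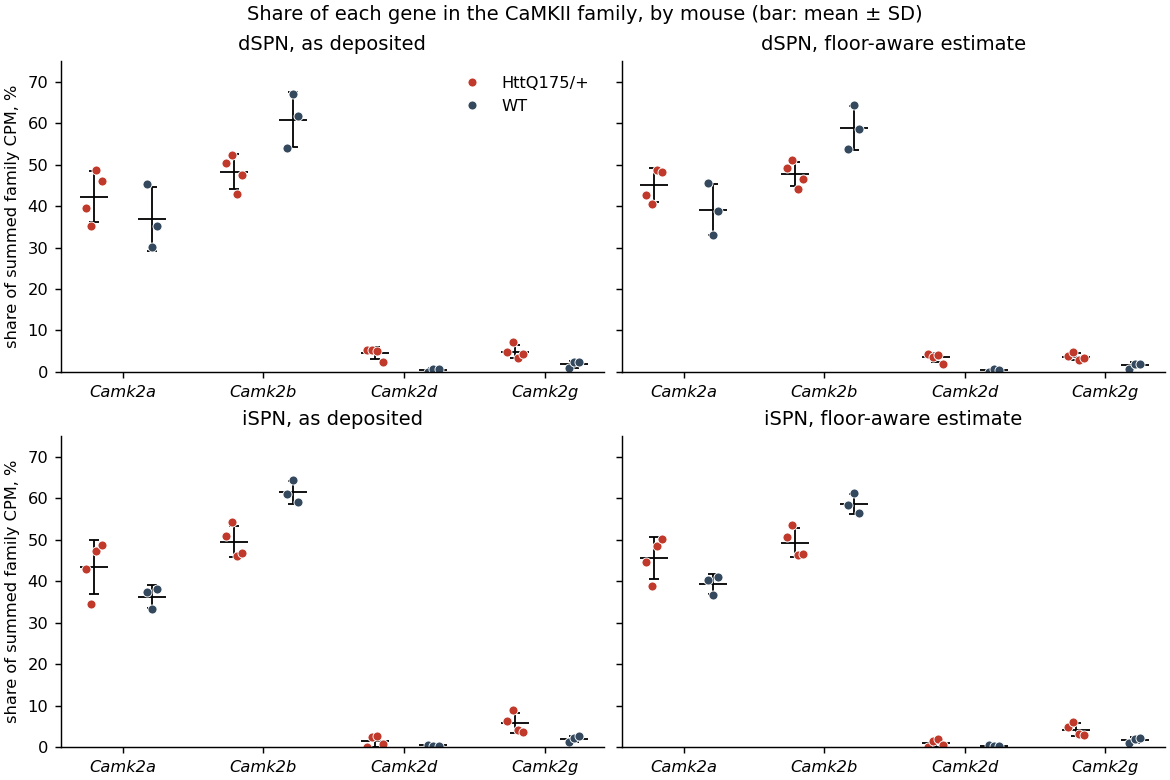
Share of each CaMKII gene in the summed family CPM, in percent (vertical axes), by mouse with mean and SD, HttQ175/+ in red left of WT in blue, from deposited levels (left panels) and floor-aware levels (right panels). The Camk2b share in dSPNs is 48.3% in HttQ175/+ and 60.9% in WT as deposited, and 47.8% in HttQ175/+ and 58.9% in WT with floor-aware levels.

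Markers in the same SPN nuclei also differed by genotype. The summed SPN marker list (8 genes, all detected) was 5142 to 6030 CPM in HttQ175/+ and 10750 to 11506 CPM in WT dSPNs, and the dSPN list (7 genes) 1078 to 1294 CPM in HttQ175/+ and 1430 to 1832 CPM in WT. The eccentric SPN list (5 genes), which marks a type with a higher Camk2d level, was 106 to 148 CPM in HttQ175/+ and 72.8 to 98.4 CPM in WT dSPNs. The cortical excitatory list (6 genes) was 19.8 to 39.5 CPM in HttQ175/+ and 3.12 to 10.1 CPM in WT, with Emx1 at 0 in both and Neurod6 at 0 in WT. The neural progenitor and neuroblast list (6 genes) was 104 to 155 CPM in HttQ175/+ and 59.5 to 78.6 CPM in WT, with Top2a at 0 in WT. The Pvalb or Pnoc interneuron list (5 genes) was 3.68 to 5.13 CPM in HttQ175/+ and 1.91 to 2.87 CPM in WT, with Htr3a at 0 in both and Pthlh and Pnoc at 0 in WT. The cholinergic list (5 genes), of the type with the highest Camk2d level, overlapped at 2.13 to 14.8 CPM in HttQ175/+ and 1.16 to 5.57 CPM in WT, with Lhx8 at 0 in both. The iSPN, Sst interneuron, astrocyte, oligodendrocyte, oligodendrocyte progenitor, microglia, vascular and ependymal lists overlapped too. In iSPNs the SPN list was 5936 to 7352 CPM in HttQ175/+ and 12386 to 12786 CPM in WT, and the iSPN list (5 of 6 genes in the files) 802 to 906 CPM in HttQ175/+ and 1964 to 2668 CPM in WT. The eccentric SPN list was 65.8 to 107 CPM in HttQ175/+ and 35.3 to 46.4 CPM in WT iSPNs, and the neural progenitor and neuroblast list 113 to 155 CPM in HttQ175/+ and 62.6 to 96.9 CPM in WT iSPNs, with Top2a at 0 in HttQ175/+ and Dlx2 at 0 in WT. These sums are deposited levels with no allowance for the floor, and HttQ175/+ nuclei were the shallower ones. Ppp1r1b, in the SPN list, has a floor of 2 UMIs in all 7 mice. The part of these marker differences in the CaMKII values was not tested.

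The 4 genes had different orders of level across the 12 types. Camk2b was highest in dSPNs and iSPNs among types with at least 50 nuclei per genotype, and among those types Camk2d and Camk2g were lowest in dSPNs and iSPNs in WT mice. Camk2d was highest in cholinergic interneurons, at 614 ± 69.8 CPM over the 4 HttQ175/+ mice, where all 4 lay above all 4 values of the next type. In WT mice it rests on 7 UMIs in 6 cholinergic nuclei and was not ranked apart. Sst interneurons had 294 ± 93.2 CPM of Camk2d in HttQ175/+ and 271 ± 124 CPM in WT, Pnoc or Pvalb interneurons 224 ± 54.0 CPM in HttQ175/+ and 313 ± 52.0 CPM in WT, and eccentric SPNs 223 ± 115 CPM in HttQ175/+ and 179 ± 80.2 CPM in WT. The ranges of these 3 neighbours overlapped, so their order is not resolved. Even the HttQ175/+ dSPN level of 48.4 ± 16.5 CPM was below the lowest HttQ175/+ mouse of Sst interneurons, at 197 CPM.

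Camk2g was highest in astrocytes, at 339 ± 31.9 CPM in HttQ175/+ and 415 ± 48.9 CPM in WT, and was apart from the next type in both genotypes. Sst interneurons had 156 ± 43.2 CPM in HttQ175/+ and 143 ± 56.5 CPM in WT, and Pnoc or Pvalb interneurons, which overlapped with them, 183 ± 48.4 CPM in WT. Camk2a and Camk2b were also listed in glia. Oligodendrocytes had 281 ± 98.7 CPM of Camk2a in HttQ175/+ and 183 ± 34.2 CPM in WT, and endothelial nuclei 64.3 ± 83.9 CPM in HttQ175/+ and 149 ± 132 CPM in WT. The part of free RNA in these glial and vascular values was not tested.

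**Figure D4:**
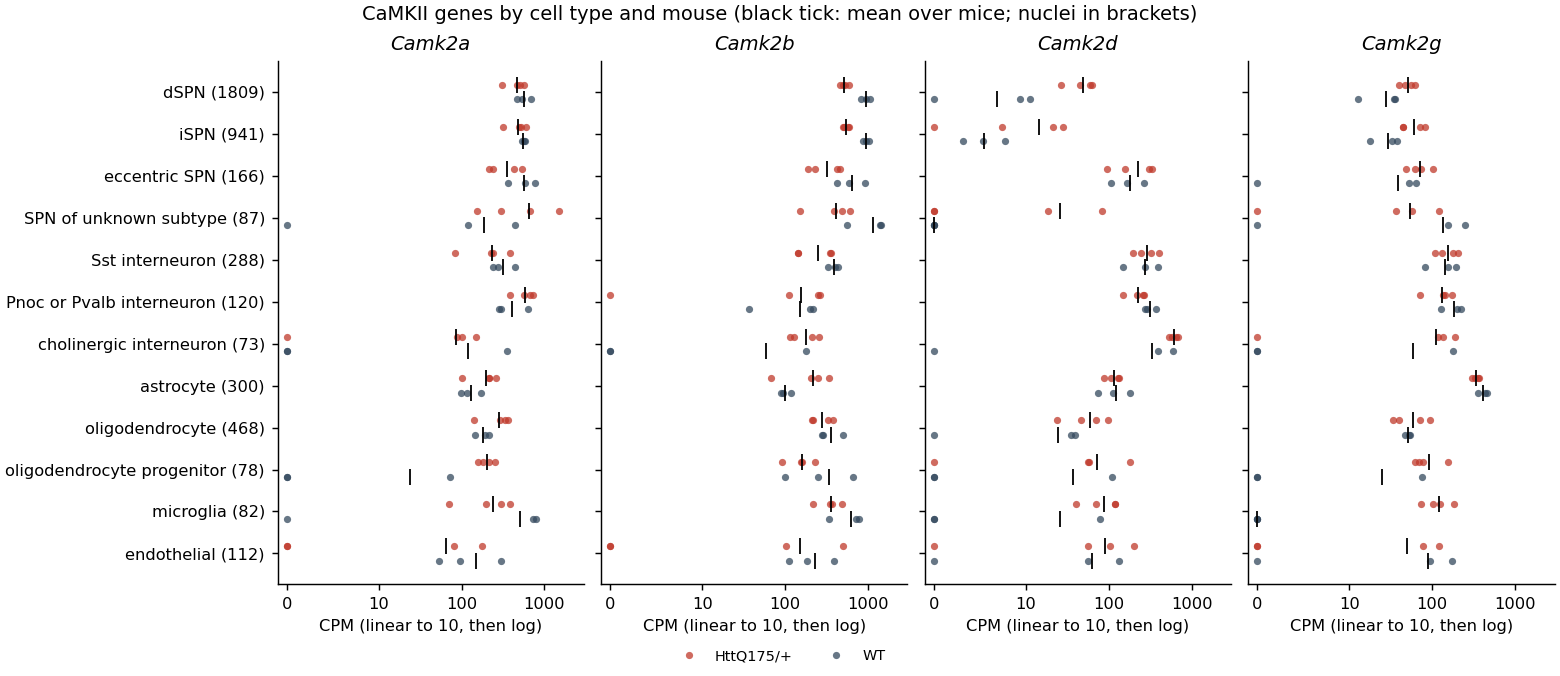
Level of each CaMKII gene in CPM (horizontal axes, linear to 10 and logarithmic above) in the 12 annotated types, one point per mouse, HttQ175/+ in red above WT in blue, black ticks at the mean over mice, with the number of nuclei in brackets. Camk2d is highest in cholinergic interneurons (614 CPM in HttQ175/+) and Camk2g in astrocytes (339 CPM in HttQ175/+ and 415 CPM in WT).

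Outside dSPNs and iSPNs only Sst interneurons, astrocytes and oligodendrocytes could be fitted, and 0 of the members tested in them passed. Camk2d was under the low-value filter in astrocytes and oligodendrocytes, and Camk2g in oligodendrocytes. In Sst interneurons limma called 0 of 2233 genes, with 163 at an unadjusted p under 0.05, and 0 of the 4 members. Those at the unadjusted p were 7.3% of genes. Camk2b averaged 247 ± 120 CPM in HttQ175/+ and 390 ± 53.8 CPM in WT Sst interneurons; the genotypes overlapped in these unscaled levels and not in the scaled ones, where 4.75% of genes were lower in HttQ175/+ without overlap. In astrocytes it called 0 of 1858 genes, with 269 (14.5%) at an unadjusted p under 0.05, and 0 of the 3 members tested. In oligodendrocytes 0 of the 2 members tested passed, where 0.879% of 3641 genes did. The changes of Camk2b were -0.76 ± 0.33 log2 in Sst interneurons, 0.68 ± 0.42 in astrocytes and -0.42 ± 0.30 in oligodendrocytes. They come from deposited levels with no allowance for the floor. HttQ175/+ nuclei were shallower than WT nuclei in Sst interneurons and deeper in astrocytes and oligodendrocytes. Genes with a floor in every mouse had a median change of -0.10, 0.29 and -0.14 log2 in these 3 types. Genes with no floor had 0.01, -0.14 and 0.02 log2. The part of floor and depth in the Camk2b changes was not tested. In Sst interneurons the change of Camk2d was 0.12 ± 0.32 log2, and whether it differed from that in dSPNs was not tested.

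The genes whose levels most resembled each subunit were ranked by Pearson's r of log2(CPM + 20) over 64 combinations of mouse and type with at least 10 nuclei, among 9137 genes. The points share mice and depth, and r describes them only. Camk2b was most like Lrrc7, a postsynaptic density protein (r = 0.84), then Grm5, Celf2, Myt1l and Grik2 (0.79 to 0.80). Camk2a was most like R3hdm1 (0.77), then the metabotropic glutamate receptor Grm5, Celf2, Dlgap2 and the NMDA receptor subunit Grin1 (0.73 to 0.76). For Camk2d the order was Ppm1e, a phosphatase known to dephosphorylate calmodulin kinases (0.72), Pcdh8, Plekha7, Syt13 and Sphkap (0.67 to 0.70). For Camk2g it was Msi2 (0.81), Igdcc4, Grin2c, Rmst and Farp1 (0.73 to 0.75). Camk2a and Camk2b followed each other at r = 0.62, and Camk2d and Camk2g at 0.50, while Camk2b and Camk2d ran opposite at -0.43.

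Among genes that act with CaMKII, some fell in HttQ175/+ dSPNs and iSPNs beside the lower Camk2b, and 0 rose. Of 65 genes in 6 lists around the kinase, 60 were tested in dSPNs. There 0 rose and 16 fell (26.7%), against 2.56% of all genes tested that fell. The median change was -0.29 log2 against 0.01 over all genes tested. In iSPNs 57 were tested, 0 rose and 11 fell (19.3%), against 1.85% of all genes tested, with a median of -0.30 log2 against -0.01. The lists were chosen with earlier results of these data known, so these shares are descriptions only. The test was limma with Benjamini-Hochberg adjustment over all genes of the type. The share of genes called differed between genes with and without a floor. Those genes were not matched for level, and the part of the floor in these shares was not tested. Over all tested dSPN genes, 19.2% of the 281 with a floor in every mouse passed, 11.5% of the 442 with a floor in some mice, and 2.99% of the 8067 with none. In iSPNs these shares were 14.4% of 277, 8.5% of 400 and 1.25% of 5217 genes. Of the pathway genes in dSPNs 9 of 16 with a floor in every mouse fell, 4 of 10 with a floor in some mice and 3 of 34 with none. In iSPNs these counts were 8 of 16, 1 of 10 and 2 of 31. With floor-aware levels 16 fell in dSPNs, 15 of them among the 16 above, and 10 in iSPNs, 8 of them among the 11. In nuclei of 1500 to 2500 UMIs alone 4 passed in dSPNs and 1 in iSPNs.

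Calcium entry and release genes gave the most calls of the 6 lists, 6 of 14 tested in dSPNs and 4 of 14 in iSPNs. Ryr1, a ryanodine receptor that releases calcium from internal stores, has no floor. It had 29.8, 33.2, 51.7 and 20.3 CPM in HttQ175/+ dSPNs, against 249, 262 and 262 CPM in WT dSPNs, a change of -3.00 ± 0.24 log2 (adjusted p = 1.84e-05). In iSPNs it fell by 1.48 ± 0.25 log2 (adjusted p = 0.00394), with 34.3 to 55.9 CPM in HttQ175/+ and 86.8 to 158 CPM in WT mice. Ryr1 passed under all 19 alternative settings in dSPNs, at adjusted p up to 0.000414, and under the 17 that tested it in iSPNs. Itpr1, the inositol trisphosphate receptor, fell by 0.85 ± 0.17 log2 in dSPNs (adjusted p = 0.00961) and by 0.91 ± 0.16 log2 in iSPNs (adjusted p = 0.00581). With floor-aware levels its adjusted p was 0.0434 in dSPNs and 0.0722 in iSPNs, past the threshold in dSPNs alone. Cacnb2, a calcium channel beta subunit with no floor, fell in dSPNs by 0.68 ± 0.17 log2 (adjusted p = 0.0332) and in iSPNs by 0.95 ± 0.19 log2 (adjusted p = 0.0119). Ryr3 and the channel subunits Cacna1e and Grin2b fell in dSPNs too, and Cacna1e in iSPNs.

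Calm2 and Calm3, which encode calmodulin, did not pass in either type. The change of Calm2 was -0.44 log2 in dSPNs and -0.57 in iSPNs, and that of Calm3 was -0.19 in dSPNs and -0.29 in iSPNs. Of the 7 genes for calmodulin and calmodulin-binding proteins, Pcp4 and Nrgn fell in both. Pcp4, a small protein that alters calcium binding by calmodulin, had 322, 369, 310 and 295 CPM in HttQ175/+ dSPNs, against 924, 602 and 1355 CPM in WT dSPNs. The groups were far apart and WT mice varied widely. Its change was -1.62 ± 0.22 log2 (adjusted p = 0.000942), and -1.27 ± 0.20 log2 with floor-aware levels (adjusted p = 0.00189). It passed under all 19 alternative settings in both types. Nrgn, neurogranin, which holds calmodulin when calcium is low, fell by 1.05 ± 0.22 log2 in dSPNs (adjusted p = 0.0124) and by 1.12 ± 0.24 log2 in iSPNs (adjusted p = 0.0166). With floor-aware levels Nrgn did not pass in iSPNs (adjusted p = 0.0589).

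Among inhibitor proteins, Camk2n1, which binds the active kinase and blocks it, had 362, 297, 267 and 423 CPM in HttQ175/+ and 514, 413 and 653 CPM in WT dSPNs. HttQ175/+ replicate 4 lay above WT replicate 2 in these unscaled levels, and the fitted change was -0.77 ± 0.19 log2 (adjusted p = 0.0386). With floor-aware levels it was -0.49 ± 0.16 log2 and did not pass (adjusted p = 0.104), nor did it in iSPNs (adjusted p = 0.203), so the call on Camk2n1 rests on the deposited scale. Camk2n2 was under the low-value filter in both types.

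Of the phosphatases and their regulators, which reverse or gate CaMKII phosphorylation, 3 of 10 tested fell in each type. Ppp3ca, the catalytic subunit of calcineurin, had 1496, 1566, 1507 and 1579 CPM in HttQ175/+ dSPNs, against 2374, 2415 and 2376 CPM in WT dSPNs. This tight separation gave -0.77 ± 0.11 log2 (adjusted p = 0.00117), although its floor was 3 UMIs in WT replicates 2 and 3 and 2 UMIs in the other mice. Ppp1r1b (DARPP-32), a regulator of protein phosphatase 1 and an SPN marker, had 214 to 305 CPM in HttQ175/+ and 428 to 675 CPM in WT dSPNs, a change of -1.31 ± 0.18 log2 (adjusted p = 0.00117). Ppp1r9a (neurabin), which anchors protein phosphatase 1 to actin, fell by 0.86 ± 0.13 log2 (adjusted p = 0.00145). All 3 also fell in iSPNs, by 0.72, 1.31 and 0.77 log2. With floor-aware levels all 3 passed with smaller changes, at -0.71, -0.86 and -0.60 log2 in dSPNs. In iSPNs these were -0.64, -0.82 and -0.53 log2.

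Other calmodulin kinases fell in 3 of 8 tested genes in dSPNs and 1 of 7 in iSPNs. Camkv, a pseudokinase that binds calmodulin, fell by 0.82 ± 0.15 log2 in dSPNs (adjusted p = 0.00588) and 0.98 ± 0.17 log2 in iSPNs (adjusted p = 0.00377). With floor-aware levels its changes were smaller, at -0.63 ± 0.12 log2 in dSPNs and -0.74 ± 0.14 log2 in iSPNs, and both passed. Camk4, a mainly nuclear kinase, fell by 0.85 ± 0.16 log2 in dSPNs (adjusted p = 0.00862). Its floor was 1 UMI in all HttQ175/+ mice and 2 UMIs in all WT mice, and with floor-aware levels it passed in both types. Camk1g fell by 1.46 ± 0.37 log2 in dSPNs (adjusted p = 0.0386), resting on 4 to 15 UMIs per HttQ175/+ mouse and 10 to 18 per WT mouse. Among the 20 partners and substrates tested there 1, Kalrn, an exchange factor for small GTPases at spines, fell in dSPNs, by 0.88 ± 0.15 log2 (adjusted p = 0.00336), and 0 of the 18 tested in iSPNs passed, with 4 at an unadjusted p under 0.05.

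These calls differed in how far they depended on single mice. In dSPNs Pcp4, Camk4, Camkv, Ppp1r1b, Ppp1r9a, Ppp3ca and Kalrn passed with each mouse left out in turn, and so did Ryr1. Of these, Camk4, Camkv, Ppp1r9a, Ppp3ca and Kalrn did not pass in nuclei of 1500 to 2500 UMIs alone, with adjusted p up to 0.446. Nrgn reached an adjusted p of 0.0504 without HttQ175/+ replicate 4 and Itpr1 0.0583 without WT replicate 1. Itpr1 did not pass after thinning or in that depth window either, with adjusted p up to 0.560. Ryr3, Cacna1e, Cacnb2, Grin2b, Camk1g and Camk2n1 each lost the call in dSPNs when any of 3 or more mice was left out, with adjusted p up to 0.248, 0.361, 0.353, 0.200, 0.0808 and 0.162 over all alternatives. In iSPNs Ryr1, Pcp4, Itpr1, Camkv, Ppp1r1b and Ppp3ca passed with each mouse left out. Itpr1, Camkv, Ppp1r1b and Ppp3ca did not pass in the depth window, and Ryr1 was not tested there. Ppp1r9a did not pass without WT replicate 1 (adjusted p = 0.0611). Nrgn did not without WT replicate 1 or WT replicate 3, and Cacnb2 did not without WT replicate 1 or WT replicate 2. Cacna1e and Camk2n1 lost the call in iSPNs when any of 5 or more mice was left out.

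**Figure D5:**
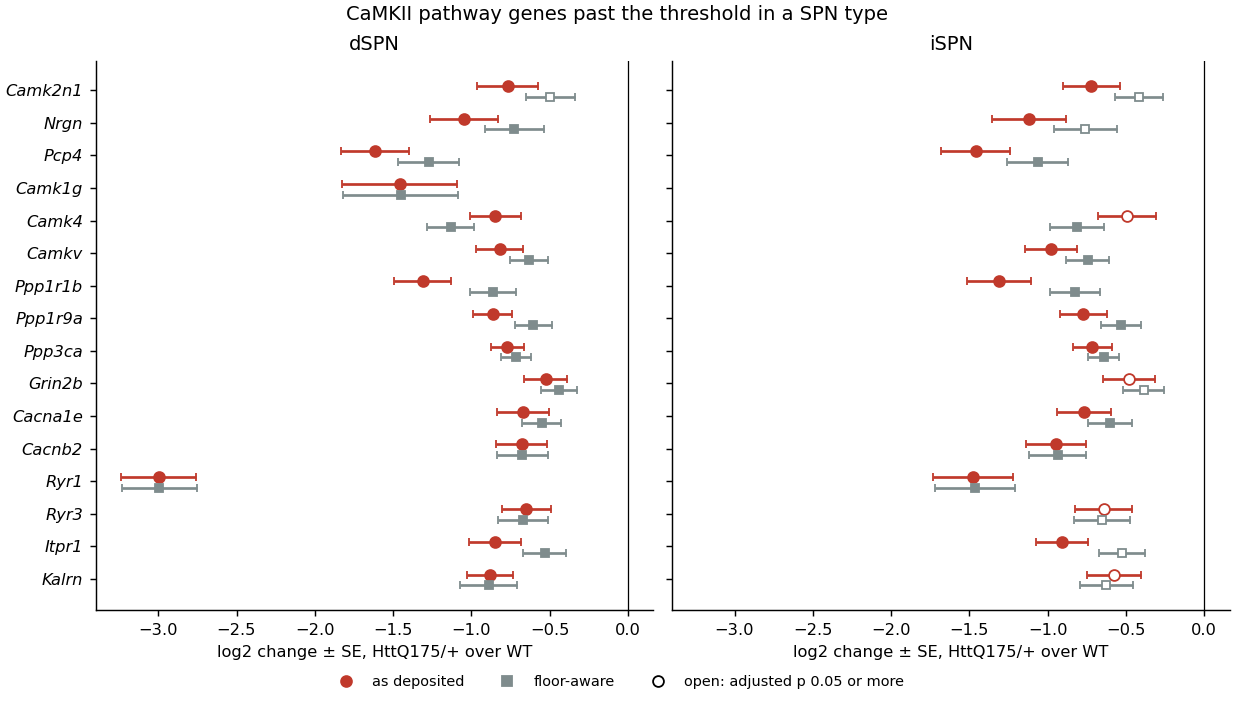
Fitted log2 change with SE, HttQ175/+ over WT (horizontal axes), of the 16 pathway genes past the threshold in dSPNs or iSPNs, from deposited levels (red circles) and floor-aware levels (grey squares). Open symbols have an adjusted p of 0.05 or more, and Ryr1 in dSPNs is lowest at -3.00 log2. Camk1g was not tested in iSPNs.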

How the data were processed

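The values the authors deposited are natural logs: each mouse has a table of genes by nuclei holding ln(1 + x), x being UMIs per 10000 in that nucleus, as read from the values. Processing used Cell Ranger 3.0.2 and Seurat on mm10, per the submitters' processing notes; nuclei were isolated from frozen striatum and read with a Chromium 3′ version 3 kit, per the labels' protocols. Filters, type calling and strand use are not stated there. Cell types come from the authors' deposited annotation and genotypes from the labels, which matched for all 4524 nuclei. Dividing each nucleus by its smallest value gave back UMIs: 100% of 5824756 values above 0 were whole within a tolerance of 0.02. The depth was 872558 to 2256178 UMIs per mouse. No doublets were called or removed here.

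CPM were averaged per mouse and type, scaled by trimmed means of M values, and log2-transformed after adding the CPM equivalent of 2 UMIs at the median mouse's depth (3.67 in dSPNs, 8.31 in iSPNs), which shrinks changes of low genes. Genes needed 15 UMIs in all and 10 at the median sum in 3 mice. limma 3.58.1 (trend, R 4.3.3) tested HttQ175/+ against WT in types with at least 10 nuclei in 3 mice of each genotype, adjusted by Benjamini-Hochberg over all genes of the type at 0.05. Printed CPM are unscaled. The labels do not say how the mice were related, and p-values measure the spread between these 7 libraries. The fit was tested on simulated data. The 4 members and the 6 lists were chosen with earlier results of these data known, as were the alternatives on scaling, pseudocount, filter, averaging, depth and single mice. In each type up to 4 passing genes per list are named, smallest p first, and for each subunit the 5 most similar genes. The passing genes beyond these, in counts and the plot, were named after their values were seen. Some single genes of the lists are not reported here.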

Additional observations from a re-analysis of the deposited data

Results flagged for a closer look

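The Camk2d share of the summed family in dSPNs of HttQ175/+ replicate 4 was 2.38%, far below the other HttQ175/+ mice at 5.10, 5.21 and 5.32%. The gap to the nearest mouse was 0.923 of the range of the group, past the limit of Dixon's test for 4 samples. It rests on 15 UMIs of Camk2d. Of 45 groups of 4 mice examined it was the 1 that stood out, and chance alone flags about 1 group in 20.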

How the results depend on the processing

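In iSPNs Camk2b was not called in nuclei of 1500 to 2500 UMIs. Its calls elsewhere are no support, since the family was chosen on this contrast. The common floor, that depth window and the floor-aware estimate were chosen after the data had been seen. Genes called in dSPNs numbered 346, against 145 after thinning to 1000 UMIs and 39 in the depth window, and 197 to 315 with a mouse left out (206 without HttQ175/+ replicate 1 and 197 without WT replicate 1). In iSPNs they numbered 139, against 17 in the window and 56 to 146 with a mouse left out (82, 91, 56 and 70 without HttQ175/+ replicates 1 and 2 and WT replicates 1 and 3). Fewer genes were tested in the thinned fits, at 5785 in dSPNs and 2960 in iSPNs, and fewer genes and nuclei in the window fits. Pathway genes called in dSPNs numbered 16, against 10 without scaling, 4 in the window and 10 to 14 with a mouse left out (10 without HttQ175/+ replicate 1, HttQ175/+ replicate 4 or WT replicate 1). In iSPNs they numbered 11, against 1 in the window and 6 to 11 with a mouse left out (6 without WT replicate 1). The floor-aware change of Camk2b was -0.76 log2 in dSPNs and -0.63 in iSPNs. Camk2d in dSPNs changed by 3.17 log2 with a pseudocount of 0.5 UMIs and by 1.75 to 2.82 with a mouse left out, and Camk2g there by 0.38 to 1.00. The Camk2b share difference in iSPNs was -8.48 points in the window. Differences in the percent of nuclei with a UMI, HttQ175/+ minus WT, were without thinning -26.2 points for Camk2b, 7.91 for Camk2d and 3.78 for Camk2g in dSPNs, and -14.6 for Camk2a and -27.6 for Camk2b in iSPNs; where not given, the cause of a shift was not tested. The direction of each genotype difference in level, share and detection in dSPNs and iSPNs held under each alternative that gave a value. That is no support for the differences, because the family was chosen on this contrast and the alternatives reuse the same mice. It includes Camk2a, whose levels overlapped between genotypes. The level of Camk2d in iSPNs was not fitted. The small difference of Camk2b between neuron types had the opposite sign in the window. No paired analysis was possible because the labels give no replicate numbers that pair mice across genotypes. Depth limits Camk2d most, with 9 UMIs in all WT dSPN nuclei.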
